A study of Mus musculus with 16 samples.

Results

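The C130026I21Rik cluster is a stretch of duplicated genes on mouse chromosome 1, and its 5hmC peaks are described here across 12 peak lists. Its members are C130026I21Rik, A530032D15Rik, Gm2619, Gm6264 and Gm16028, and it was delimited as every listed peak that starts between chr1:85000001 and chr1:85400000 (GRCm38). By this rule 157 of the 7582 peaks of the series (2.07%) belong to it, and all 5 genes held at least 1 of them. The cluster was chosen by the recurrence of its listed peaks and their presence in one genotype or the other, measured in these same lists, so those patterns are given as a description with no test.

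The lists came from immunoprecipitation of 5-hydroxymethylcytosine (5hmC) in sonicated genomic DNA with the antibody HMC31, followed by sequencing. The cells were c-kit+ cells from mouse bone marrow, a gate that contains stem and progenitor cells. Both genotypes carried NHD13, the NUP98-HOXD13 fusion transgene used to model myelodysplastic syndrome, and they differed in Tet2: the genotype NHD13/TET2-KO is called knockout here, and NHD13 with intact Tet2 is called control, so no library came from a mouse without the transgene. Each genotype had 6 immunoprecipitated libraries, made of 2 library numbers (1 and 7 for knockout, 3 and 5 for control) in each of 3 pools, and a number was read as 1 DNA library whose pools are repeat immunoprecipitations. The labels do not give the age, sex or number of mice behind a library number, the Tet2 allele, or how the transgene is driven. The 4 input libraries were not analysed here.

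TET enzymes, TET2 among them, oxidise 5-methylcytosine to 5hmC, mostly at cytosines followed by guanine (CpG), and TET2 is the member of the family most often mutated in myeloid malignancies. 5hmC is usually found in gene bodies and at enhancers of active genes. The cluster lies beside Sp110, Sp140 and Sp100, which encode speckled proteins, nuclear body proteins with chromatin reader domains. Duplicated stretches such as this one hold near-identical copies of the same sequence, so a short read taken from one copy can match several.

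The assembled part of the window is 347103 bp long and ends at chr1:85347103, where a gap of 100000 bp begins. Aligned to itself, it gave 138 pairs of copies of at least 1000 bp, with a median identity of 96.6% (range 90.1 to 99.2%) and a longest pair of 15946 bp. Of these pairs 70 ran in the same direction and 68 were inverted. Only 17.3% of the 31-base words in the window occur once on the assembled chromosomes, and 9.31% occur once when the unplaced contigs are counted too. A further copy inside the window existed for 62.2% of the words, one in the stretch around the window for 66.4%, and one on the 5 chromosome 1 contigs of the assembly for 80.5%. The 12 lists held 0 peaks on contigs. How the authors placed reads that match several copies is not given in the sources used here.

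The peak with the highest fold enrichment in the cluster shows how alike the copies are, and it is printed with its copies for that reason. It lay at chr1:85260476-85260918, touching an exon of C130026I21Rik, in control number 5 pool 3. It had a fold of 3.17 over its local background and a −log10 p of 4.44. The 200 bp around its summit are given with the aligned 200 bp of both copies inside the window, plus strand of GRCm38, with CpG in capitals.
chr1:85260561-85260760, C130026I21Rik exon: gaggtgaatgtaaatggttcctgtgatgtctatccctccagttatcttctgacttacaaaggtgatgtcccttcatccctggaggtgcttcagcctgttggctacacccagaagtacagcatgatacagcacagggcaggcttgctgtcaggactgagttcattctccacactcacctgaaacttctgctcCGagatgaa
chr1:85100356-85100555, A530032D15Rik copy: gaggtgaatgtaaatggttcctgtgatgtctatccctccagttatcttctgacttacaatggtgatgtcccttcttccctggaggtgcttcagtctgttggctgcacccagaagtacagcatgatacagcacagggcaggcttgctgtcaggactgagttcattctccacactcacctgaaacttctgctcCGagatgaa
chr1:85113317-85113516, A530040E14Rik copy: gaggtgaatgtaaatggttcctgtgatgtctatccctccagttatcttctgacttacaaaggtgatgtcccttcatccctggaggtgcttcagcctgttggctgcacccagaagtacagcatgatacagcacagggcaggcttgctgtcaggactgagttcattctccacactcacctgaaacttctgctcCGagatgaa
The copy in A530032D15Rik differed from the first sequence at 4 of 200 bases, and the copy in A530040E14Rik at 1. A530040E14Rik is an antisense gene that partly overlaps A530032D15Rik. Both of these copies also lie within the long GENCODE body of C130026I21Rik. Each of the 3 sequences had 1 CpG, at the same place near the right end. All of these copies overlapped a peak in the same list, control number 5 pool 3: chr1:85100494-85100732 had a fold of 1.85 and chr1:85113183-85113573 also 1.85. The summits were not at matching bases: chr1:85100600 lies outside the printed copy, and chr1:85113317 is the first base of the other. The remaining copy on the assembled chromosome, in Sp140 beyond the gap, is 99.5% identical and lay in a peak of that list with a fold of 2.11. The summit of that peak, chr1:85609631, was outside the copy, chr1:85609833-85610032. Of the 12 lists, control number 5 pool 3 was the only one with a peak that overlaps any of these 4 sequences. A peak of knockout number 7 pool 3 merged into the region around the Sp140 copy, chr1:85609395-85610191, without overlapping the copy itself. On the contigs, 8 copies aligned and 4 of them were identical to the first printed sequence.

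A different picture came from a region whose peaks were in both knockout numbers and in no control list, chr1:85250634-85251000. It lies in introns of C130026I21Rik, Gm2619 and Gm16028, and its aligned copies in the window had no peak in any list. The 200 bp around its summit in knockout number 7 pool 1 are shown with those copies to set base differences beside the absence of peaks, CpG in capitals, each in the orientation of the first.
chr1:85250708-85250907, plus strand, with a peak: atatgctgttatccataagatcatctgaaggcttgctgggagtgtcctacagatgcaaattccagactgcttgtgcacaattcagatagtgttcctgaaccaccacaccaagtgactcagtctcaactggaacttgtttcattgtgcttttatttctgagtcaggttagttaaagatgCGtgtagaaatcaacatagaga
chr1:85092506-85092705, plus strand, without a peak: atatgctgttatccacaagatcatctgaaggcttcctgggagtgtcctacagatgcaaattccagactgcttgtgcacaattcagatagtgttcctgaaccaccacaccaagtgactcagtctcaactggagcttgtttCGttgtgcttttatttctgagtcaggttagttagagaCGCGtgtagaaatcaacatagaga
chr1:85167590-85167789, minus strand, without a peak: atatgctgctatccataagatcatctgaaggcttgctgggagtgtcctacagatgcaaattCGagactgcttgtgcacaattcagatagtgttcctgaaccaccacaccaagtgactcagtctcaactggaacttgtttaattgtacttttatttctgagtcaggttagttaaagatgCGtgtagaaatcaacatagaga
The first copy differed at 6 of 200 bases and had 3 CpG, and the second differed at 4 bases and had 2 CpG, against 1 CpG in the sequence with the peak. The summit sequence had 2 further copies beside the window, without a peak, and 8 on contigs, 1 of them identical. The region chr1:85256266-85256736, also in both knockout numbers only, had the opposite order. It had 1 CpG in its summit sequence and 0 in both copies in the window, which had no peak there. On contigs 8 copies of it aligned and 2 were identical. The differences printed here thus do not set these summit sequences apart from all copies in the assembly.

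The only region of the cluster in both control numbers and in no knockout list was chr1:85164355-85164905, which touches an exon of Gm6264. The peak of control number 3 in it, chr1:85164663-85164905, lay in an intron and begins beyond the bases printed here. Those bases overlapped peaks of number 5 only. The summit sequence of the region in control number 5 pool 1 is shown for comparison with its single copy inside the window. The copy lies in the Gm16028 body at chr1:85253845-85254044 and had no peak. Capitals again mark CpG.
chr1:85164443-85164642, plus strand, with a peak: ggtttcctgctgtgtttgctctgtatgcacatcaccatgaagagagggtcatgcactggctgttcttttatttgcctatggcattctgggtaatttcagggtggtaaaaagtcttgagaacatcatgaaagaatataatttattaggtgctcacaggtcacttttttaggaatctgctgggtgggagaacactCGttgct
chr1:85253845-85254044, minus strand, without a peak: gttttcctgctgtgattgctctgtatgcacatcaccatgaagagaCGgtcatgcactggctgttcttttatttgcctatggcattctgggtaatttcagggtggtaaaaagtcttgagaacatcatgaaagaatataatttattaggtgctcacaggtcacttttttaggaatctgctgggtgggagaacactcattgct
These sequences differed at 4 of 200 bases and had 1 CpG each, at different places. On contigs 7 copies of the summit sequence aligned and 0 were identical.

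Peaks of the cluster were uneven across lists. In pools 1 to 3, knockout number 7 listed 47, 20 and 18 peaks there, and control number 5 listed 38, 11 and 14. Knockout number 1 had 4, 0 and 4, and control number 3 had 1, 0 and 0. Within each genotype one library number therefore held nearly all of the peaks, and 9 of the 12 lists had any. The pool 1 lists of numbers 5 and 7 alone gave 85 of the 157. As a share of each list, number 7 placed 1.20, 7.41 and 7.03% of its peaks in the cluster and number 5 placed 1.63, 4.53 and 5.69%. Number 1 placed 3.08, 0 and 7.14% there, out of 130, 49 and 56 peaks, and number 3 placed 2.13, 0 and 0%, out of 47, 15 and 9. The lowest shares among lists of numbers 5 and 7 were thus in their long pool 1 lists, of 2337 and 3924 peaks.

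**Figure D1:**
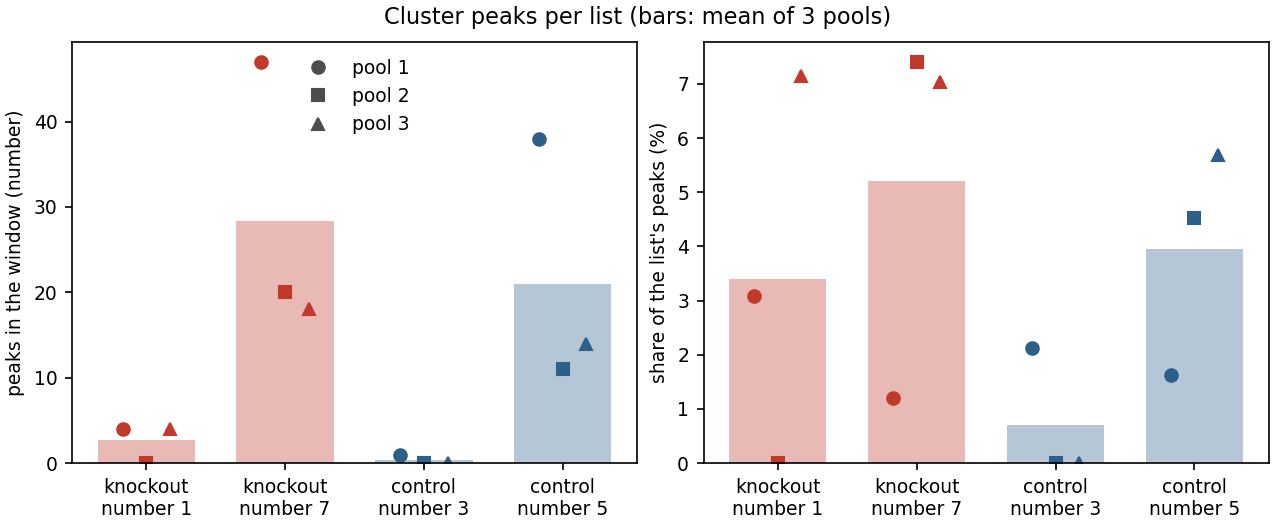
Number of cluster peaks in each list (left) and their share of all peaks of the list in percent (right), by genotype and library number; symbols are the 3 pools and bars their mean. Numbers 7 and 5 reach 47 and 38 peaks, and no list of numbers 1 and 3 exceeds 4.

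Averaged over pools, the library numbers had 2.67 (number 1) and 28.3 (number 7) cluster peaks in the knockout and 0.333 (number 3) and 21 (number 5) in the control. Knockout numbers averaged 15.5 ± 18.1 peaks per list and control numbers 10.7 ± 14.6 (SD over 2 numbers per genotype), so the difference, 4.83, was smaller than either SD. It turned to -5.5 without number 3 and to -8 without number 7. As a share of the list the means were 4.31 ± 1.28% and 2.33 ± 2.29%, a difference of 1.98 percentage points, with number 5 above number 1 and the groups overlapping. An exact test of 2 numbers against 2 cannot give a p below 0.33.

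Peaks were denser in the cluster than in the rest of the genome in each of the 9 lists that had one there. Knockout number 7 pool 2 had 57.6 peaks per Mb of assembled window against 0.0917 per Mb elsewhere, and control number 5 pool 2 had 31.7 against 0.0851. In the long list of knockout number 7 pool 1 the values were 135 and 1.42. The window was chosen for its peaks, so this density is a description of the choice. It was not particular to the window: over all lists together the window had 452 peaks per Mb, and the duplicated stretch after the gap, up to chr1:85700000, had 403 per Mb.

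Individually the cluster peaks were weak. Fold enrichment over the local background, a linear ratio given by the authors for each peak, ran from 1.10 to 3.17 with a median of 1.70. The −log10 p ran from 0.534 to 4.44 and was at least 1 for 115 peaks. No peak of the cluster had a q-value under 1, that is, the −log10 q was 0 for all 157. The width was exactly 200 bp for 66 peaks (42.0%), with a median of 222 bp and a maximum of 763 bp. At the edges of the window, the first peak inside (chr1:85010177-85010376, fold 1.64) and the last (chr1:85346441-85346640, fold 1.28) stood beside nearest peaks outside it of chr1:84992136-84992354 at 1.79 and chr1:85455926-85456125 beyond the gap at 1.70.

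The median fold of cluster peaks was close to the median of the same list elsewhere. In knockout number 7 it was 1.70, 1.64 and 1.66 in pools 1 to 3, against 1.70, 1.78 and 1.82 outside the window. In control number 5 it was 1.89, 1.79 and 1.85, against 1.89, 1.87 and 1.85. Knockout number 1 had medians of 1.72 in pool 1 and 1.34 in pool 3, against 1.57 and 1.31 outside, and the single peak of control number 3 had 1.49, against 1.37. Knockout numbers averaged a median fold of 1.60 ± 0.0999 and control numbers one of 1.67 ± 0.247 (SD over 2 numbers per genotype), and the difference of -0.0707 lay within the spread. Folds of different lists are not on one scale, because the background behind them differed between lists.

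**Figure D2:**
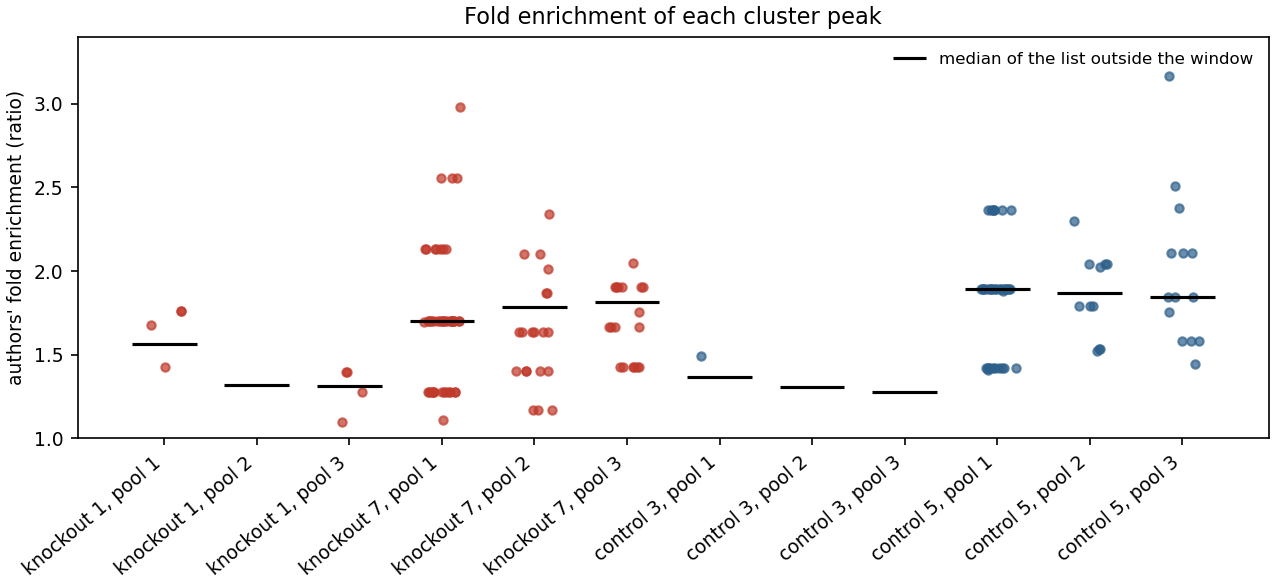
Authors' fold enrichment (linear ratio) of each cluster peak, by list, with the median of the list's peaks outside the window as a bar. Values fall on a few repeated levels within the lists of numbers 5 and 7, and the highest, 3.17, is in control number 5 pool 3.

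The repeated levels were those of whole numbers of fragments. Solving the fold and p of each peak together for a pileup and a background gave a whole-number pileup for 153 of the 157 peaks, to within 0.001 in −log10 p. In pool 1, the pileup was 2 to 4 fragments over a background of 1.11 to 1.13 in control number 5 and 2 to 6 over 1.35 to 1.70 in knockout number 7. In pools 2 and 3 it was 5 to 11 over 2.79 to 3.16 in number 5 and 4 to 9 over 3.21 to 3.56 in number 7. Knockout number 1 pool 1 had pileups of 16 to 20 over 10.9. A pileup of 2 or 3 fragments stood behind 67 peaks of the cluster, and one of at most 5 behind 105 of the 148 peaks of numbers 5 and 7 that had a whole number.

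Merging peaks that touch gave 110 regions, out of 6230 in the series, which covered 33683 bp or 9.70% of the assembled window. Without the pool 1 lists of numbers 5 and 7, 57 regions were left. Peaks were in knockout lists only in 54 regions (49.1%, against 60.5% of all regions), in control lists only in 34 (30.9%, against 35.4%) and in lists of both genotypes in 22 (20%, against 4.06%). Regions in 2 or more lists numbered 28 (25.5%, against 4.59%), and those in 3 or more numbered 12 (10.9%, against 3.52%). The mix of lists behind these shares differs. The pool 1 lists of numbers 7 and 5 held 3924 and 2337 of the 7582 peaks of the series, but 47 and 38 of the 157 in the cluster. The series shares were not computed without those lists, and the part of list mix in the contrast was not tested. Of the 28 recurrent regions, 22 were in both genotypes, 4 in the knockout only and 2 in the control only. Over the whole series 253 of 286 recurrent regions were in both genotypes, a larger share than in the cluster. A single list held 82 of the cluster's regions (74.5%). The counts by library number were 84 regions in 1 number, 22 in 2, 4 in 3 and 0 in all 4, and 15 regions were in 2 pools and 5 in all 3.

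Repeat immunoprecipitations of one number shared few regions. Among the lists of numbers 5 and 7, a list's cluster regions were found again in another pool of the same number in a median of 7.89% of cases (range 0 to 30% over 12 ordered pairs of lists). For the other number in the same pool the median was 8.12% (5 to 23.7%, 6 pairs), and for the other number in another pool 10.9% (2.63 to 45.5%, 12 pairs). By these medians, a region in lists of numbers 5 and 7 came back in the opposite genotype about as often as in its own number. Knockout number 1 pools 1 and 3, with 4 regions each, shared 0% with each other. Their regions came back in 25 to 50% of cases in number 7 lists and in 0 to 50% in number 5 lists. By direct overlap, control number 5 pools 2 and 3 shared 0 with each other, although each shared 3 with pool 1. Recovery was counted by direct overlap between the lists compared. Both pools could still belong to one merged region, as they did at chr1:85087451-85088707.

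The annotation overlaps itself heavily here, and a peak counts for every gene that contains it: 50 regions lay in 1 member, 49 in 2 or more, and 11 in none. C130026I21Rik (ENSMUSG00000052477.15) is protein coding in GENCODE release M21 and spans chr1:84992690-85270566 on the minus strand. Its body held 94 peaks, 57 knockout and 37 control, in 62 regions, of which 8 touched an exon and 8 lay within 1 kb of an annotated start. By list it had 23, 17 and 11 peaks in knockout number 7, 20, 7 and 9 in control number 5, 3, 0 and 3 in knockout number 1, and 1, 0 and 0 in control number 3. Of its regions 31 were in knockout lists only, 19 in control lists only and 12 in both. The RefSeq model of the gene is shorter, chr1:85241286-85282883, and held 62 peaks, 39 knockout and 23 control, in 35 regions.

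A530032D15Rik (ENSMUSG00000089844.7, protein coding, chr1:85083069-85109853, minus strand) had 24 peaks in 14 regions, 4 of them at an exon. Its peaks were nearly even between genotypes, 13 knockout and 11 control, and its regions were 6 in knockout lists only, 6 in control lists only and 2 in both. Knockout number 7 gave 2, 7 and 2 of the peaks and control number 5 gave 7, 1 and 3, so different pools led in the 2 numbers. Knockout number 1 had 1 peak each in pools 1 and 3, and control number 3 had none in its 3 lists.

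Gm2619 (ENSMUSG00000091199.9), a transcribed pseudogene at chr1:85156809-85327306 on the minus strand, had the most peaks of any member, 106 in 72 regions, 64 knockout and 42 control. Only 1 of its regions touched an exon. Its long GENCODE model crosses the C130026I21Rik body, and its RefSeq model, chr1:85313407-85327379, held 11 peaks in 10 regions. Counts by list were 38, 9 and 12 in knockout number 7, 24, 7 and 10 in control number 5, 2, 0 and 3 in knockout number 1, and 1, 0 and 0 in control number 3. The pool 1 lists of numbers 7 and 5 led, as they did for the cluster as a whole.

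Gm6264 (ENSMUSG00000089716.7, transcribed pseudogene, chr1:85159764-85194260, plus strand) had 11 peaks in 7 regions. Knockout number 7 had 4, 1 and 2 of them, control number 5 had 1 in each pool, and control number 3 had 1, in pool 1, while knockout number 1 had none. Gm16028 (ENSMUSG00000090252.1, antisense, chr1:85246851-85255465, plus strand) had 12 peaks in 8 regions: 5, 2 and 1 in knockout number 7, 1 in knockout number 1 pool 1, and 3 in control number 5, all in pool 1. Per length it was the densest member, with 9.29 regions per 10 kb against 5.23 in A530032D15Rik, 4.22 in Gm2619, 2.23 in C130026I21Rik and 2.03 in Gm6264. These densities order the members by where the peaks crowd along the window.

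Other genes of the window with a peak were Gm16026, a pseudogene opposite the start of C130026I21Rik, with 29 peaks (14 knockout, 15 control) in 16 regions, and Gm16025, a long noncoding RNA gene, with 9. A530040E14Rik and Gm7281 had 4 each, Gm18342 had 2, and Gm10553 and Gm7609 had 1 each. In all, 25 of the 110 regions touched an exon of some gene, 83 lay in introns and 2 between genes, and 22 were within 1 kb of a transcript start.

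**Figure D3:**
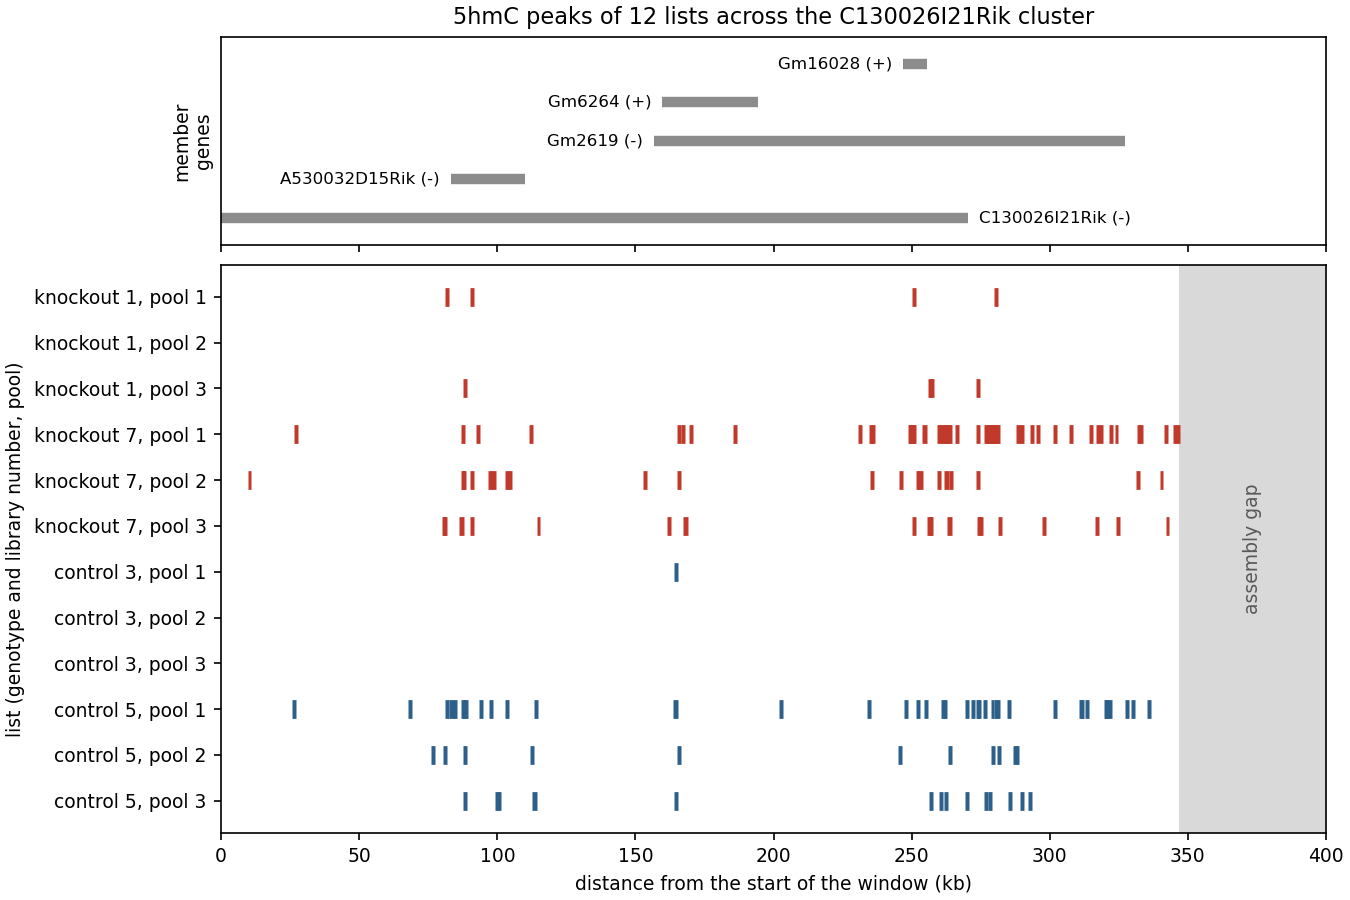
Peaks of each of the 12 lists along the window (distance from its start in kb) below the 5 member genes, knockout lists in red and control lists in blue. Peaks of both genotypes crowd at about the same places, and the 3 lists without a peak are number 1 pool 2 and number 3 pools 2 and 3.

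Peaks crowded in 3 stretches, whose limits were drawn after seeing the data. The stretch chr1:85080001-85115000, around A530032D15Rik, had 34 peaks, or 9.71 per 10 kb, from 8 lists. The stretch chr1:85150001-85171000, at the left end of Gm2619 and Gm6264, had 11 peaks (5.24 per 10 kb), and chr1:85231001-85347103, from the right part of C130026I21Rik to the gap, had 105 (9.04 per 10 kb). Between them lay 35000 bp with 0 peaks (chr1:85115001-85150000) and 60000 bp with 2 (chr1:85171001-85231000), and the first 80000 bp of the window had 5. Both genotypes followed these stretches, with 18 knockout and 16 control peaks in the first, 7 and 4 in the next, and 65 and 40 in the last.

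**Figure D4:**
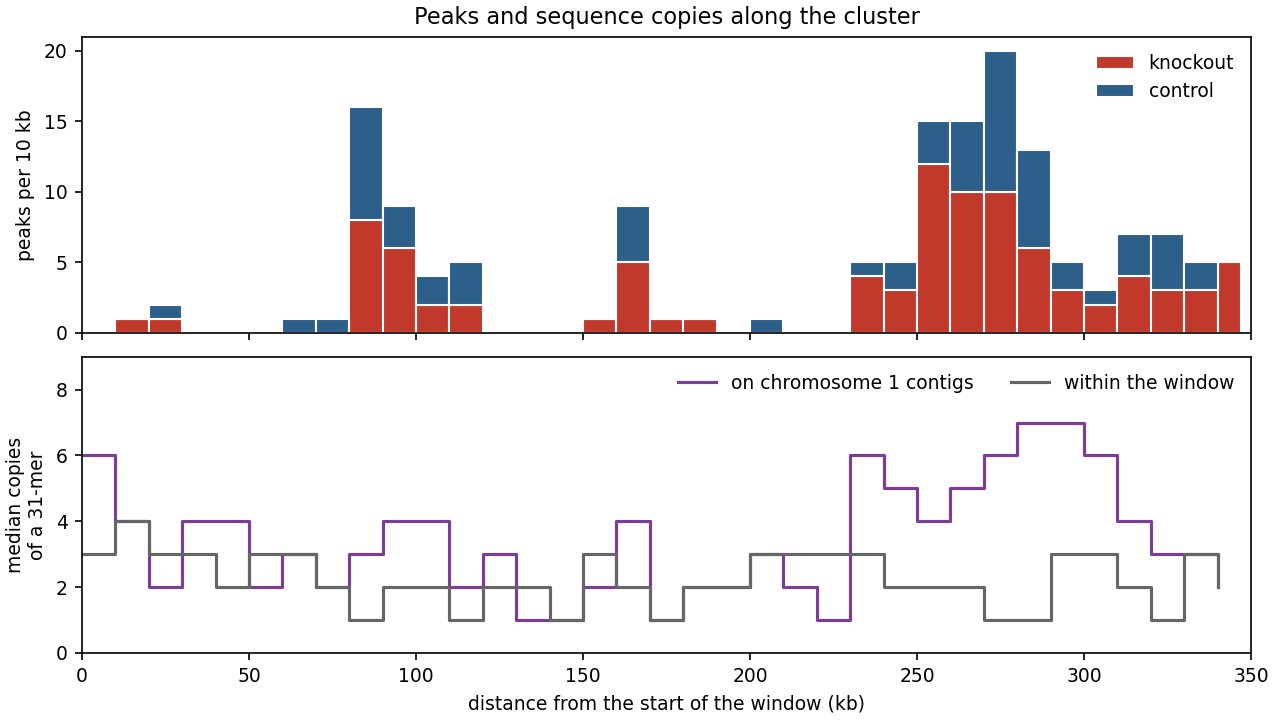
Upper panel, cluster peaks per 10 kb of the window, knockout in red and control in blue; lower panel, median number of copies of the 31-base words of each bin on the chromosome 1 contigs and within the window. The bin from 270 to 280 kb holds the most peaks, 20, and has 6 contig copies, and the bin from 80 to 90 kb, with 16 peaks, has 3.

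Copy number at the summits differed from the rest of the window in a direction that depended on where copies were counted. The 200 bp around a summit had a median of 5 copies on the chromosome 1 contigs, against 3 for all 1735 tiles of 200 bp of the window, and the median over chromosomes and contigs together was 8 for both. On the assembled chromosomes, where all the peaks lie, the order was the other way, with a median of 3 copies at summits against 4 in tiles, and more than 1 copy at 82.2% of summits against 93.7% of tiles. The median word of the window had more than 1 copy over chromosomes and contigs at 100% of the 157 summits and in 98.9% of tiles. Repeat-masked sequence was a median of 15.5% of a summit window against 36.5% of a tile. The mean number of CpG was 1.43 at summits (1.37 in knockout lists, 1.52 in control lists) against 1.83 in tiles, and 75.2% of summits and 75.4% of tiles had at least 1. The part of copy number in the density of peaks was not tested.

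The region in the most lists was chr1:85087451-85088707, which touches an exon of A530032D15Rik. It was in 6 lists, 3 of each genotype, through 8 peaks that chain over 1257 bp, so not every peak overlaps every other. Folds were 1.89 and 1.88 in control number 5 pool 1, 2.03 in its pool 2 and 1.76 in its pool 3. On the knockout side they were 1.69 in number 7 pool 1, 1.64 and 1.40 in its pool 2, and 1.10 in number 1 pool 3. It had no aligned copy in the window, 1 beyond the gap with no peak (98% identical) and 5 on contigs, 1 of them identical. The printed bases themselves overlapped peaks of control number 5 pools 1 and 2 and of knockout number 1 pool 3 only. Its summit sequence in control number 5 pool 2 is printed because the merged region was in the most lists, plus strand, CpG in capitals.
chr1:85088355-85088554, A530032D15Rik: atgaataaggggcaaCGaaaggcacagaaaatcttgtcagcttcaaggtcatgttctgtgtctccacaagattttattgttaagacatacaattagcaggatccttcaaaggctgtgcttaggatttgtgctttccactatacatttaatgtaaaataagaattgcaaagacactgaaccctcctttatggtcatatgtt

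Of the 11 remaining regions in 3 or more lists, both regions in 4 lists lay near the start of C130026I21Rik. At chr1:85263431-85264199 the folds were 1.70, 1.64 and 1.66 in knockout number 7 pools 1 to 3 and 1.52 in control number 5 pool 2. At chr1:85273824-85274203, in introns of Gm2619 and Gm16026, they were 1.70 and 2.34 in number 7 pools 1 and 2, 1.40 in knockout number 1 pool 3 and 1.89 in control number 5 pool 1. Both therefore came from the knockout in 3 lists and from the control in 1.

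Regions shared by 3 lists of both genotypes numbered 6. In 4 of them the peaks came from numbers 5 and 7, and 2, chr1:85256871-85257338 and chr1:85280459-85280684, had 1 list of each of numbers 1, 5 and 7. Folds ran from 1.28 to 2.11 and from 1.11 to 1.89 in these 2. In the others they ran from 1.79 to 2.13 at chr1:85165526-85165996, from 1.58 to 1.70 at chr1:85262446-85262929, from 1.79 to 2.56 at chr1:85279087-85279437 and from 1.89 to 2.30 at chr1:85281080-85281608. The 3 regions that start at or after chr1:85279087 lie within 3 kb of each other in Gm16026 and Gm2619.

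Few regions had peaks in both library numbers of a genotype while lacking any from the opposite genotype. In the knockout there were 3 of them (2.73% of the cluster's regions, against 0.177% of all regions, 11 in the series), and in the control 1 (0.909%, against 0.0321%, 2 in the series). Here too the mix of lists differs between the cluster and the series. At chr1:85090535-85091011, in an intron of A530032D15Rik, the folds were 1.76 in knockout number 1 pool 1, 2.01 in number 7 pool 2 and 1.75 in number 7 pool 3, over pileups of 20, 8 and 7 fragments. At chr1:85250634-85251000, printed above, they were 1.68 in number 1 pool 1, 2.56 in number 7 pool 1 and 1.43 in number 7 pool 3, over 19, 5 and 5 fragments. At chr1:85256266-85256736, in introns of C130026I21Rik and Gm2619, they were 1.40 in number 1 pool 3 and 1.90 in number 7 pool 3. The control region at chr1:85164355-85164905 had 1.49 in number 3 pool 1, 2.37 in number 5 pool 1 and 2.11 in number 5 pool 3. Each of the 4 was thus absent from at least 3 of the 6 lists of its own genotype, and without pool 1 there were 2 such knockout regions and 0 control regions.

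The other genotype was close by in each case. The nearest region with a peak of the other genotype lay 1827, 1050 and 134 bp from the 3 knockout regions and 620 bp from the control region, and all of these neighbours were in both genotypes. The control region itself was 73.3, 85.7 and 91.4 kb from the 3 knockout regions, so those 4 were not neighbours of each other. Nor were they copies of each other: the aligned copies of all 4 in and around the window held no peak at the summit sequence. For chr1:85256266-85256736 both copies in the window differed at 3 of 200 bases, and an aligned part of the region outside the summit matched chr1:85162134-85162392, which had a peak in knockout number 7 pool 3 with a fold of 2.05.

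Among the 88 regions of one genotype, knockout and control were interleaved. Of the 87 adjacent pairs in order along the chromosome, 44 switched genotype and 43 did not. The distance to the nearest region of the other genotype only had a median of 2006 bp (range 84 to 16406), and it was at most 1 kb for 25 regions and at most 5 kb for 78. The closest pair, 84 bp apart, was the knockout region chr1:85259732-85260391 and the control region with the highest fold, chr1:85260476-85260918. Both regions touch an exon of C130026I21Rik. The knockout peak nearest the control region, chr1:85259925-85260391 in number 7 pool 1, lay in an intron.

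The aligned copies of each region were looked up for peaks. A copy was an alignment inside the window of at least 90% identity that covered at least 100 bp of a region. It existed for 94 of the 110 regions, with a median of 2 copies and a maximum of 15. Over the part on the region itself, identity had a median of 97.9% and went down to 78.5%. The maximum, at chr1:85279482-85279795, came from short alignments that overlap one another, so copies are counts of alignments and not of separate places. Regions covered 9.70% of the assembled window, and any overlap of a copy with another region counted. Of the 199 copies, 38 (19.1%) held a region, a share that was not compared with random placement. That left 21 pairs of copies with a peak on each: 6 pairs in knockout lists only, 5 in control lists only, 9 with a region of both genotypes, and 1 that set a control region against a knockout region. A list was common to both copies in 13 pairs, and a library number without a list in 7 more. The pair of opposite genotypes was chr1:85099605-85099830 in A530032D15Rik (control number 5 pool 3, fold 1.58) and chr1:85259732-85260391 in C130026I21Rik (knockout number 7 pools 1 and 2, fold up to 1.70).

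**Figure D5:**
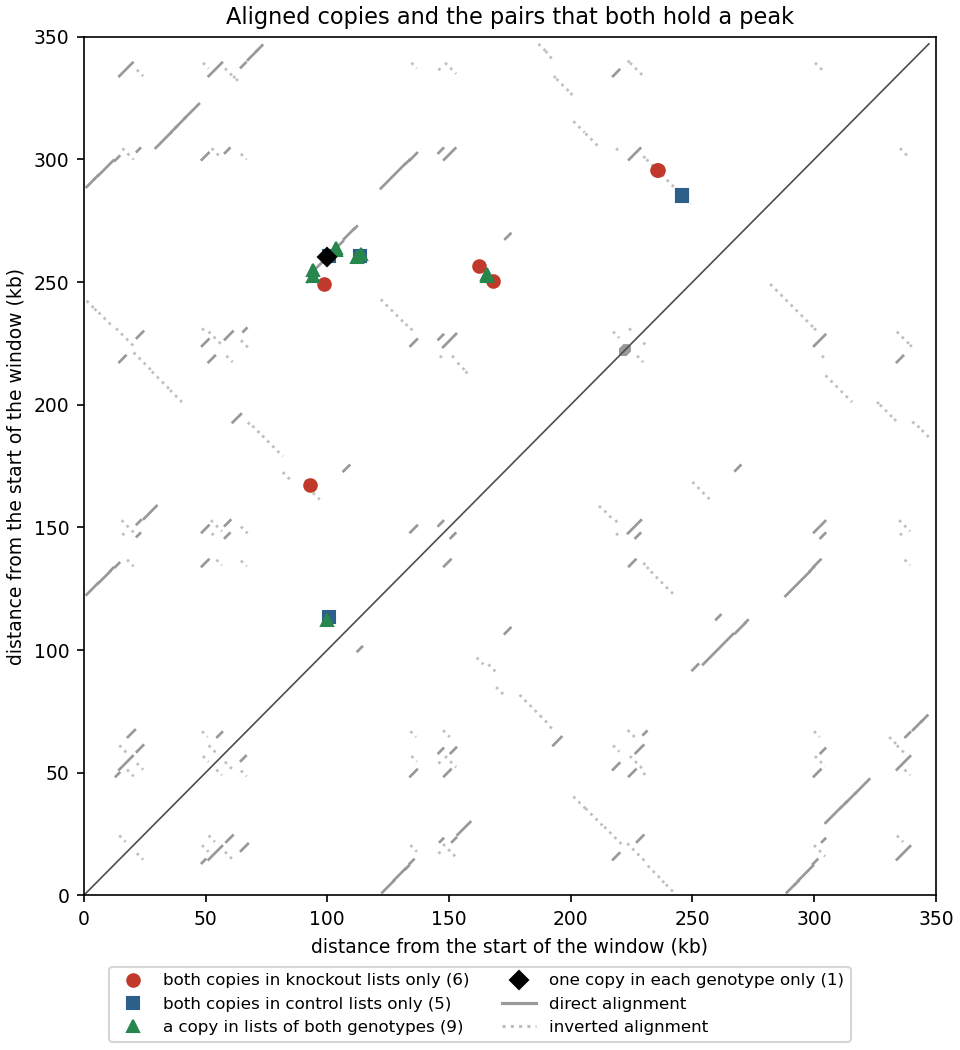
Alignment of the window to itself (both axes, distance from its start in kb), with grey lines for aligned copies of at least 1000 bp and symbols for the 21 pairs of copies that both hold a peak. The densest group of symbols lies where the stretch around 100 kb aligns to that around 260 kb, and 1 pair sets a knockout region against a control region.

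Joining regions that are copies of each other left 91 positions, of which 72 still held peaks of one genotype only. For 6 regions of one genotype a copy elsewhere in the window held a peak of the other genotype. With 82 of the 110 regions in a single list, most positions could hold 1 genotype only, and copies beyond the gap or on contigs were not joined, so nothing is read from this count about how reads fell among copies.

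The printed promoters of the protein coding members show how close these 2 genes are. The RefSeq promoter sequences (GRCm38.p6) were matched for 2 of the 5 members. The 300 bases around an annotated start of each are shown on the strand of the gene, minus, with CpG in capitals.
A530032D15Rik, chr1:85109804-85110103: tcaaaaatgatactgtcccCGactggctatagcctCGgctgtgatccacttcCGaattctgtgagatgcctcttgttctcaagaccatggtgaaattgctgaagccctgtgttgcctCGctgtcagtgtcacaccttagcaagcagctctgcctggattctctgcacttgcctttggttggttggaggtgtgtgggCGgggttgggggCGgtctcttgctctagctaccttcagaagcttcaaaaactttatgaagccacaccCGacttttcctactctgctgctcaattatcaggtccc
C130026I21Rik, chr1:85270517-85270816: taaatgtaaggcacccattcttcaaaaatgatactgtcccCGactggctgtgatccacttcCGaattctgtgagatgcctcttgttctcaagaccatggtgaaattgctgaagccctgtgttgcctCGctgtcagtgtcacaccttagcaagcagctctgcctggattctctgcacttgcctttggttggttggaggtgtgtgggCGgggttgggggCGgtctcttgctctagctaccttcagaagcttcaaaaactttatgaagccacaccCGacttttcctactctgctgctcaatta
Aligned to each other, 279 bases were identical, none differed and 42 stood opposite a gap. They have 7 and 6 CpG, beside a median of 7 over the 32851 promoters of the table. Neither promoter window overlapped a peak of any list. Each covers the GENCODE start of its gene, and the RefSeq models run further, to chr1:85282883 for C130026I21Rik and chr1:85110297 for A530032D15Rik. Other annotated starts are not covered, and 8 regions of C130026I21Rik lay within 1 kb of an annotated start of that gene. The nearest peak was 306 bp away at C130026I21Rik, in the region chr1:85269898-85270210, which was in control number 5 pools 1 and 3 with a fold of up to 2.37, and 2059 bp away at A530032D15Rik.

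Beyond the gap the same kind of peak went on. The flanking stretches, from chr1:84900001 up to the window and from the gap to chr1:85700000, held 106 peaks in 57 regions, 4 before the window and 102 after the gap, and 9 of the regions were in 3 or more lists. Sp140 had 41 peaks (24 knockout, 17 control) in 17 regions, and Sp110, next to it, had 33 (22 and 11) in 13 regions. One region of Sp140, chr1:85604816-85605814, was in 9 lists, more than any region of the cluster. Sp100 had 0 peaks, as had Cab39, Itm2c and Gpr55 further along. Tet2, the deleted gene, had 1 peak, in control number 5 pool 1 with a fold of 1.42, and Tet1 and Tet3 had 0. A peak list does not check the deletion, nor the c-kit+ gate.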

How the data were processed

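The members, the window and the gene lists were chosen with earlier results of these data known. The lists, 1 per immunoprecipitated library, were deposited by the authors in the narrowPeak format without a header, and columns were read by its order. The fold enrichment is the authors' linear ratio over local background, and the −log10 p and −log10 q per peak were deposited too. The summit offset, a value in bp of another kind, was also deposited by the authors. The submitters' processing notes name Bowtie2, SAMtools, MACS2 and mm10. Their versions, the threshold, the use of the inputs and the handling of reads with several matches are not given in the sources used here.

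Touching peaks were merged, and an overlap of 1 bp counted as shared (Python 3.11.15, numpy 2.4.6, pandas 2.3.3, scipy 1.17.1). The GRCm38 window was aligned to itself with BLAST 2.17.0 (identity at least 90%, at least 100 bp), and 31-base words were counted on both strands with numba 0.67.0. Genes were those of GENCODE release M21, and coordinates are 1-based. Pileups were solved from fold and p, assuming fold is pileup plus 1 over background plus 1 and p is Poisson. These routines were tested on simulated data. The lists give no read totals, so the depth is unknown beyond these pileups, and no interval was computed. Regions described in full were those in both numbers of one genotype only, those in 3 or more lists, and that of the highest fold. No test between genotypes was made, and Dixon's criterion served only to mark lists standing apart. Alternatives were another merging rule, p and identity thresholds, and leaving out each pool or library number. After seeing the data, dropping both long lists, a wider window and alignments of at least 1000 bp were added.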

Additional observations from a re-analysis of the deposited data

Results flagged for a closer look

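Groups of 4 to 10 lists of one kind were examined for a list standing apart by Dixon's criterion, 6 groups in all. Chance marks about 1 in 20 such groups when the lists are independent. Here each genotype is 2 library numbers in 3 pools, so that rate does not hold and the marks are a description. Control number 5 pool 1 stood apart among the 6 control lists with 38 peaks in the cluster, where its distance to the next list was 0.632 of the range. Knockout number 1 pool 3 stood apart among the 5 knockout lists that have cluster peaks with a median fold of 1.34, where that distance was 0.789 of the range. The list with 38 peaks is also one of the 2 long lists, with 2337 peaks in all, and the low median rests on 4 peaks, of which 1 gave a whole-number pileup, with a background of 9.90 fragments. Knockout number 1 pool 1 had a higher background, 10.9 fragments, and the highest median fold of the knockout lists, 1.72. The part of list length in the count was not tested.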

How the results depend on the processing

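The knockout minus control difference in cluster peaks per list (4.83) ranged from -8 to 17.7 when 1 library number was left out, and was negative without number 3 (-5.5) and number 7 (-8). The difference in share (1.98 points) stayed positive under all 13 alternatives and ranged from 0.361 to 3.60 over the numbers left out. The difference in median fold (-0.0707) ranged from -0.245 to 0.104 over the numbers left out, and was 3.33e-06 without number 1 and 0.104 without number 5. It became 0.00323 with peaks of −log10 p of at least 1, 0.0265 without pool 3, and -0.324 without pool 1. With the pool as a replicate block, the paired differences were 4.83 peaks, 1.98 points and -0.160 in fold, with the same direction as without pairing. Regions numbered 55 without pool 1 and 57 without the pool 1 lists of numbers 5 and 7, against 110. The control region in both numbers was lost, leaving 0, under a stricter overlap rule, measured on the shorter peak, and without pool 1, and knockout regions of that kind numbered 2 to 4. Regions with a peak of the other genotype on a copy fell from 6 to 3 at an identity of at least 98%, and one-genotype positions after joining ranged from 59 to 83. The causes were not tested. A filter at −log10 q of 1.3 left no cluster peak and gave no value. With pileups of mostly 2 to 11 fragments, a region missing from a list cannot be told from one below its threshold.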
